A study of Mus musculus with 18 samples.

Results

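The genes described here are the mouse collagen chains other than Col4a1 and Col4a2, the main collagen chains of basement membranes. They were taken by symbol, as every gene named Col followed by a type number, the letter a and a chain number, with Col4a1 and Col4a2 left out. This gave 42 of the 24116 genes in the count table, and 32 of the 42 were among the 14901 genes with enough counts to be tested. Choosing by symbol kept some chains that also belong to basement membranes or their borders. These are Col4a3 to Col4a6, Col15a1, Col18a1 and the anchoring-fibril gene Col7a1, so the 42 genes are not free of basement membrane collagens.

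Collagens are extracellular proteins whose chains wind into helices of 3 chains. Fibrillar collagens polymerise into the tension-bearing fibrils of connective tissue, fibril-associated collagens attach to the surface of those fibrils, and type VI collagen forms beaded filaments around cells. Other chains build networks, anchor epithelia to the tissue beneath them, span the plasma membrane, or carry sulphated sugar chains, as the multiplexins do. Fibroblasts and other mesenchymal cells are the main makers of fibrillar and type VI collagen, and embryonic stem (ES) cells grow as compact epithelial-like colonies that secrete mostly basement membrane components.

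RNA was sequenced from 18 libraries of mouse ES cells of strain 129S6/SvEvTac, cultured in serum with leukaemia inhibitory factor. The 4 groups were wild type (n = 8), cells lacking Snf2h (ko, n = 5), ko cells in which wild-type Snf2h was expressed again (wild-type add-back, n = 3), and ko cells given Snf2h with a mutation of the ATPase. The last group, called mutant add-back, had n = 2, numbered 1 and 3 by the labels. Snf2h is the protein made from Smarca5 and is the motor of the ISWI complexes, which slide nucleosomes along DNA. Wild type and the wild-type add-back were grown on gelatin, whereas the cell lines of the remaining groups passed at least their early passages after thawing on mouse embryonic fibroblast feeders. Feeder culture and the lack of working Snf2h therefore coincide, and their effects cannot be told apart. Genotype is described per line, and the labels do not say how many clones each line represents. Replicates are called biological without naming separate cultures, so the p-values below measure the spread between these libraries.

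Library totals ran from 15.3 to 37 M counts (M stands for mega). Levels are given as counts per M (CPM), and 3 counts summed over a group correspond to between 0.015 CPM in wild type and 0.0858 CPM in the mutant add-back. Smarca5 was at 140 to 216 CPM in wild type, 8.72 to 10.1 in ko, 83.8 to 90.2 in the wild-type add-back and 48.4 to 68.6 in the mutant add-back. The libraries fell into sets by total: under 20 M (wild type 6 to 8, ko 3 to 5 and both add-backs), 20 to 30 M (wild type 1 and 2, ko 1 and 2) and over 30 M (wild type 3 to 5). These sets stood apart in collagen levels too. Wild-type libraries of 20 to 30 M counts differed from those under 20 M in 14 of the 32 tested collagen genes, 10 higher and 4 lower, with no difference in genotype. Over all tested genes the shares were 21.6% and 21.9%. A chi-square per gene set the difference of 2 libraries of a group against counting noise. It was 1.83 to 1.88 among ko replicates 3 to 5 and 2.55 between ko 1 and 2. Between the ko sets it was 50.3 to 56.3. Among wild type 6 to 8 it was 1.48 to 2.16, and among those over 30 M 15.9 to 40.8. The p-values below count libraries of a set as separate replicates, and those within sets do not measure the spread between sets.

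Markers of other cell types moved with the groups and are given before the results they touch. A list of 22 fibroblast markers that holds no collagen summed to 43.1 to 72.5 CPM in wild type, 105 to 120 in ko, 41.6 to 43.5 in the wild-type add-back and 100 to 121 in the mutant add-back. Of the 22, 14 had enough counts to be tested in ko against wild type, and 10 were higher, 2 lower (Pdgfrb and Mmp2) and 2 not called (Thy1 and Meox1). Within the list, Fbln2, Bgn and Lox were at 28.5, 21.9 and 5.84 CPM in ko, while Lum, Ogn and Tcf21 had no count in any ko library, and Dcn, an abundant proteoglycan of fibroblasts, was at 0.0376 CPM. The 10 ES cell markers were all above 1 CPM in every group and summed to 5150 to 6740 CPM in ko against 5980 to 6250 in wild type. Extraembryonic endoderm markers summed to 8580 to 9330 CPM in ko replicates 1 and 2, and 1790 to 1870 in wild type of that set. They summed to 2520 to 2590 CPM in ko replicates 3 to 5 and 3360 to 3410 in wild type of that set. All wild-type libraries together ranged from 1520 to 3410 CPM. Of the 10 endoderm markers, 10 were called higher in ko in the former set, and 9 lower and 0 higher in the latter. In the latter set, the wild-type add-back held 2590 to 2850 CPM and the mutant add-back 3940 to 4230. The part of fibroblast or endoderm cells in the collagen results was not tested, and in bulk RNA fewer cells of a type and less RNA per cell cannot be told apart.

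Most collagen genes were expressed at low levels, and which of them passed a group mean of 1 CPM differed between the groups. The level was reached by 23 of the 42 genes in wild type, 25 in ko, 19 in the wild-type add-back and 22 in the mutant add-back, and by 15 in each of the 4 groups. The 16 genes at 1 CPM in both wild type and ko were Col1a1, Col2a1, Col5a1, Col5a2, Col5a3, Col11a1, Col11a2, Col27a1, Col9a2, Col9a3, Col20a1, Col8a2, Col7a1, Col13a1, Col17a1 and Col18a1. Of these, Col5a2 missed 1 CPM in the wild-type add-back, at 0.985. The 7 genes at 1 CPM in wild type but not in ko were Col22a1, Col4a5, Col6a2, Col6a4, Col6a5, Col6a6 and Col26a1. The 9 at 1 CPM in ko but not in wild type were Col1a2, Col3a1, Col12a1, Col16a1, Col8a1, Col6a1, Col6a3, Col23a1 and Col15a1. Some of these lay close to the line, such as Col4a5 at 1.02 CPM in wild type, Col15a1 at 1.05 in ko and Col1a2 at 0.968 in wild type.

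By class, 8 of the 11 fibrillar genes were at 1 CPM in wild type, 10 in ko, 7 in the wild-type add-back and 9 in the mutant add-back. Among the 9 fibril-associated genes the numbers were 4, 5, 3 and 5 in the same order, and among the 7 network-forming genes 2, 2, 1 and 2. The 7 beaded-filament genes gave 4, 2, 3 and 1, and none of the 7 was at 1 CPM in all 4 groups. The 4 transmembrane genes gave 2, 3, 2 and 3, the 2 multiplexins 1, 2, 1 and 1, and Col7a1 reached the level in every group. The 10 genes that reached it in no group were Col24a1, Col9a1, Col14a1, Col19a1, Col4a3, Col4a4, Col4a6, Col10a1, Col28a1 and Col25a1, the highest being Col25a1 with a mean of 0.427 CPM in ko.

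**Figure D1:**
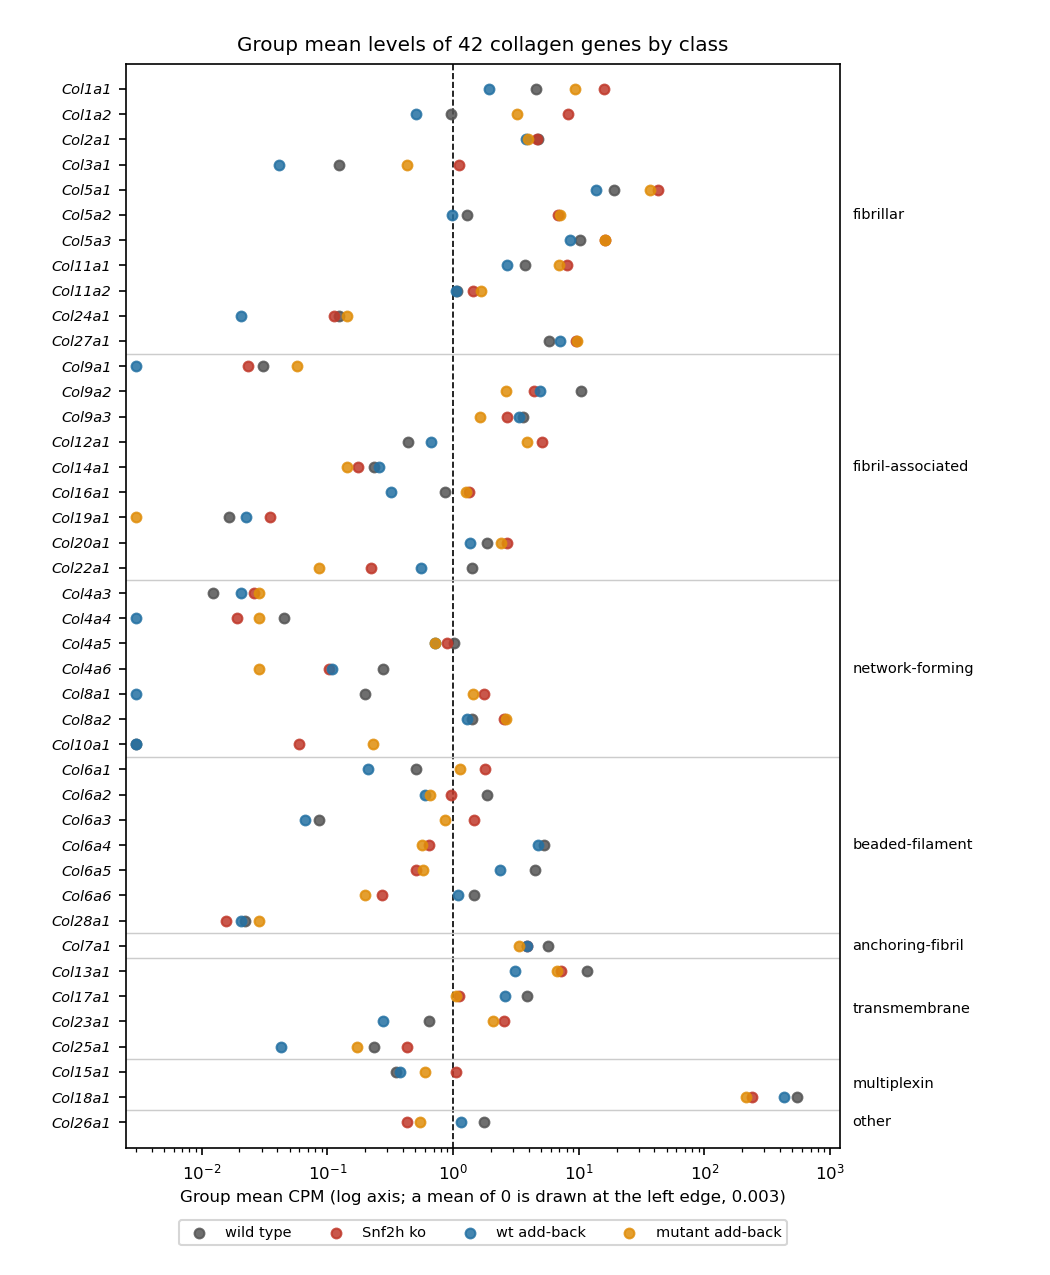
Group mean CPM of each of the 42 collagen genes on a log axis, 1 row per gene in order of class, with 1 point per group and a dashed line at 1 CPM. Col18a1 stands far to the right of every other gene, and Col6a4, Col6a5 and Col6a6 have their wild-type and wild-type add-back points to the right of the line and their ko and mutant add-back points to the left.

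Divided by exonic length, so that genes can be set against each other, Col18a1 led the 42 genes in each group. Its level was 82.8 CPM per kb in wild type, 36.4 in ko, 65.5 in the wild-type add-back and 32.8 in the mutant add-back. For comparison, the left-out chain Col4a1 was at 109 CPM per kb in wild type and 256 in ko. After Col18a1, wild type had Col9a2 (3.82 CPM per kb), Col13a1 (2.73) and Col5a1 (2.26), whereas ko had Col5a1 (5.09), Col1a1 (2.66) and Col5a3 (2.40). The chains of type I collagen, which assemble as 2 copies of the Col1a1 product with 1 of the Col1a2 product, were at 0.776 and 0.096 CPM per kb in wild type and at 2.66 and 0.821 in ko. Summed over the 42 genes, wild-type libraries held 605 to 766 CPM and ko libraries 323 to 452, with no overlap. Without Col18a1 the order turned, at 96.3 to 144 CPM in wild type and 147 to 172 in ko.

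Ko against wild type asked which genes depend on Snf2h, and the wild-type add-back asked which differences its return removes. In ko, 16 of the 32 tested collagen genes were higher than in wild type and 11 were lower (edgeR quasi-likelihood test, Benjamini-Hochberg adjusted p under 0.05, two-sided, here and below). Over all 14901 tested genes 26.8% were called higher and 28.2% lower, so the 34.4% of collagen genes called lower were close to the background and the 50.0% called higher were above it. At 2-fold or more, 12 collagen genes were higher (37.5%, against 7.66% of all genes) and 8 lower (25.0%, against 8.13%). The ko libraries lay above every wild-type library for 12 genes and below every one for 8, against 14.1% and 15.4% of all tested genes. The median log2 fold change of the 32 genes was 0.57, beside -0.01 for all genes. A gene that passed the count filter through a single group had to differ between groups, so these shares describe the tested genes and not all 42.

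In the wild-type add-back, 17 of the 32 genes were lower than in ko and 5 higher, against 22.4% and 22.5% of all tested genes. The median log2 fold change was -0.94, beside -0.01 for all genes. This comparison and ko against wild type share the ko libraries, so a sample-specific deviation in ko would show in both. Set against the original wild-type cells, the rescued line had 3 genes lower, Col1a1, Col16a1 and Col13a1, and 0 higher, where 1.17% and 0.43% of all genes were called. For the higher direction an unadjusted p under 0.05 and DESeq2 also gave 0, whereas for the lower one they gave 14 and 7. Its median was -0.51, beside -0.02 for all genes. The count of 3 rested on few libraries: it was 5, 5 and 6 without wild-type replicate 6, 7 or 8, and 1 without wild-type add-back replicate 1, 2 or 3.

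The add-backs were also compared with each other, and the means compared hold no ko or wild-type library. Errors and p-values came from the fit of all 18 libraries, so they draw on the spread within ko and wild type too. Of the 32 genes, 15 were lower in the wild-type add-back than in the mutant add-back and 6 higher, against 18.4% and 18.6% of all genes, with a median of -0.74 beside -0.01. Fibrillar genes gave 7 lower and 0 higher, with Col1a2 at -2.63 ± 0.34 (log2, adjusted p = 1.2e-05), Col5a2 at -2.84 ± 0.36 (adjusted p = 9.3e-06) and Col5a1 at -1.42 ± 0.16 (adjusted p = 2.2e-06). Beaded-filament genes gave 2 lower and 3 higher, with Col6a4 at 3.05 ± 0.30 (adjusted p = 5.7e-07), and Col18a1 was at 1.00 ± 0.23 (adjusted p = 0.002). Both add-back groups are small. The calls of Col3a1 (without wild-type add-back replicate 1 or 3 or mutant add-back replicate 1), Col22a1 (without wild-type add-back 2 or 3 or mutant add-back 3), Col8a2 (wild-type add-back 2 or 3, or either mutant add-back), Col6a5 (mutant add-back 3) and Col5a3, Col13a1 and Col17a1 (mutant add-back 1) were lost when those libraries were left out.

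In the mutant add-back, 1 of the 32 genes was called against ko, Col1a2, which was lower, and 0 were higher, where 0.208% and 0.114% of all genes were called. At an unadjusted p under 0.05 edgeR gave 3 lower (Col1a1, Col1a2 and Col3a1) and 0 higher, and DESeq2 called 0 in either direction. The median log2 fold change was -0.23, beside -0.01 for all genes. The call of Col1a2 was lost without ko replicate 1, 2, 4 or 5 and without either mutant add-back library. Both mutant add-back libraries had totals under 20 M, and against the 3 ko libraries of that set 4 genes were lower and 1 higher, beside 7.8% and 6.83% of all genes. These were Col1a1, Col1a2 (-1.31 ± 0.22, adjusted p = 4.6e-04), Col9a2 (-0.88 ± 0.25, adjusted p = 0.021) and Col18a1 (-0.45 ± 0.08, adjusted p = 7.1e-04) on the lower side, and Col27a1 (0.62 ± 0.19, adjusted p = 0.034) on the higher. Against wild type the mutant add-back had 13 genes higher and 12 lower, against 22.1% and 23.5% of all genes, and the 13 fell to 8 without mutant add-back replicate 1. Among those higher were Col1a2 at 1.72 ± 0.25 (log2, adjusted p = 2.2e-05), Col5a2 at 2.45 ± 0.26 (adjusted p = 8.8e-07) and Col12a1 at 3.09 ± 0.31 (adjusted p = 4e-07), and among those lower Col6a4 at -3.21 ± 0.28 (adjusted p = 7.5e-08) and Col18a1 at -1.34 ± 0.21 (adjusted p = 4.9e-05). This last comparison shares the wild-type libraries with ko against wild type. Endoderm markers summed to 3940 to 4230 CPM in the mutant add-back and 2520 to 2590 in the 3 ko libraries under 20 M. Their part in the calls against those ko libraries, such as that of Col27a1, was not tested.

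**Figure D2:**
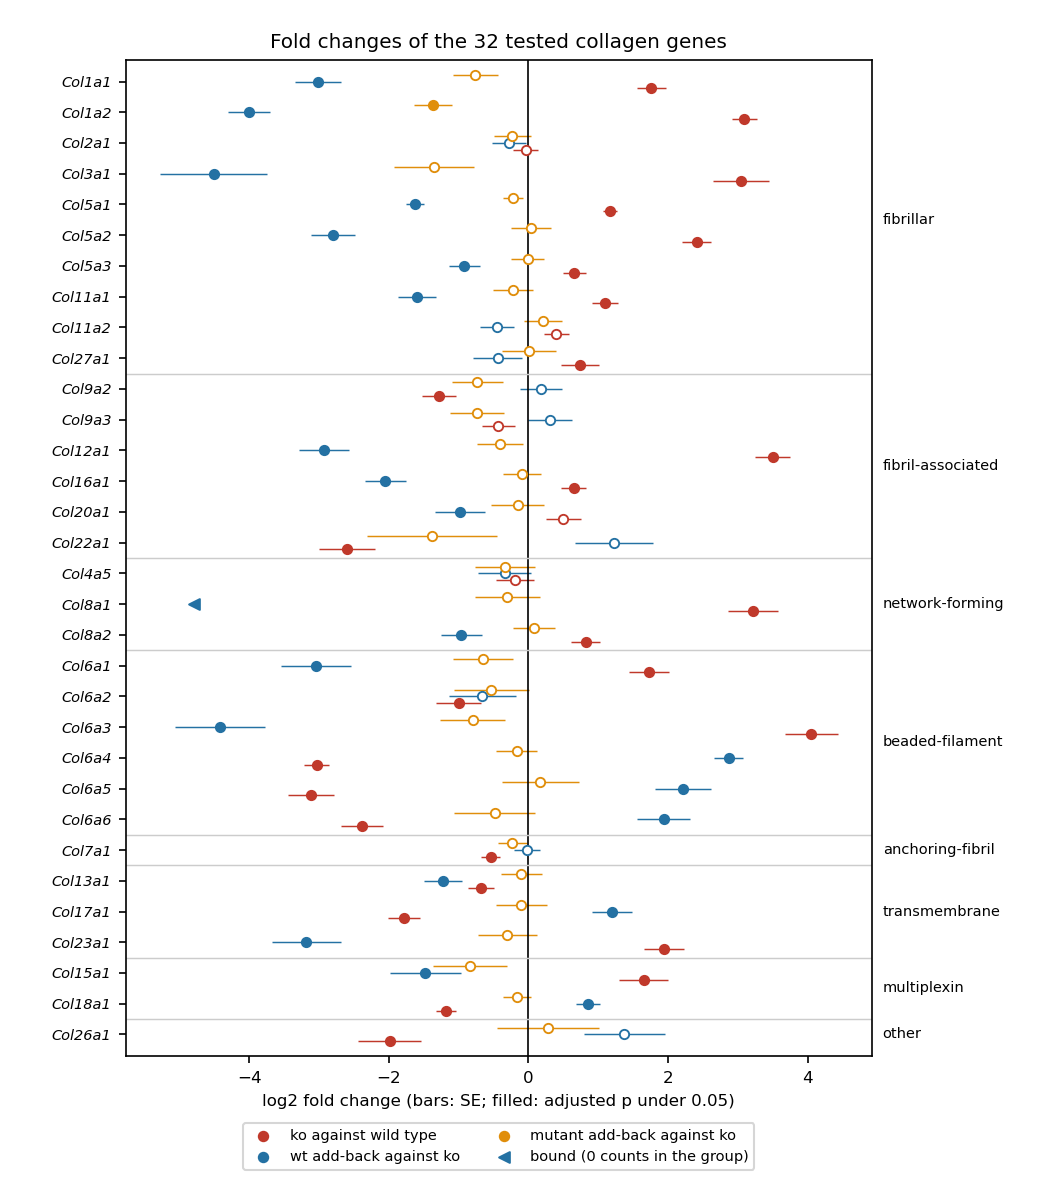
Log2 fold changes of the 32 tested collagen genes by class for ko against wild type, wild-type add-back against ko and mutant add-back against ko, with standard errors as bars and filled points where the adjusted p was under 0.05. The arrowhead marks Col8a1, which had no count in the wild-type add-back and is drawn at its bound, and 1 point of the mutant add-back, that of Col1a2, is filled.

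Fibrillar collagen was the class with the most genes higher in ko. Of its 10 tested genes 8 rose, 0 fell and 2, Col2a1 and Col11a2, were not called, with a median log2 fold change of 1.13. In the wild-type add-back 7 of the 10 fell against ko and 0 rose, with a median of -1.62. For comparison, 26.8% of all tested genes were higher and 28.2% lower in ko, and 22.4% were lower in the wild-type add-back than in ko. Fibroblasts make most of these chains. Of the 14 tested fibroblast markers above, 10 were higher and 2 lower in ko, and their part in the result was not tested.

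Col1a2, which encodes the second chain of type I collagen (chr6:4505618-4541543 on GRCm38), had the smallest adjusted p of the fibrillar genes. Wild-type libraries held 0.564 to 1.36 CPM with a median of 0.98. The 5 ko libraries held 8.43, 9.09, 6.89, 8.52 and 8.48 CPM, the wild-type add-back 0.575, 0.615 and 0.337, and the mutant add-back 2.93 and 3.47. All ko libraries lay above every other library, and the mutant add-back lay between ko and wild type without overlapping either. The rise in ko was 3.09 ± 0.18 on the log2 scale (adjusted p = 1.2e-10). Against ko, the wild-type add-back was at -4.00 ± 0.30 (adjusted p = 7.5e-09), and the mutant add-back at -1.37 ± 0.27 (adjusted p = 0.031), the call that leaving out single libraries ended, at values from -1.26 to -1.51.

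Its partner Col1a1 (chr11:94936224-94953042), the other chain of type I collagen, showed a smaller rise from a higher base. Wild type ranged from 2.3 to 6.9 CPM with a median of 4.03. Ko held 12.2, 10.8, 17.3, 19.8 and 18.8 CPM, the wild-type add-back 1.98, 2.03 and 1.82, and the mutant add-back 9.82 and 8.82. The ko libraries exceeded all others, and the wild-type add-back lay below every wild-type library. Col1a1 rose by 1.76 ± 0.21 in ko (log2, adjusted p = 1.1e-06) and was at -3.02 ± 0.33 in the wild-type add-back against ko (adjusted p = 8.0e-07). The wild-type add-back was also below wild type, by -1.26 ± 0.30 (adjusted p = 0.041), a call lost without wild-type replicate 3, 4 or 5 or any wild-type add-back library.

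Col3a1 (chr1:45311538-45349706), the single chain of type III collagen, was near 0 in wild type and the wild-type add-back. Wild type held 0 to 0.313 CPM with a median of 0.126. The ko libraries held 0.945, 0.928, 1.47, 1.43 and 0.755 CPM and the mutant add-back 0.517 and 0.341. In the wild-type add-back 1 library held 0.123 CPM and the other 2 held 0. Ko rose above every wild-type library, by 3.04 ± 0.40 (log2, adjusted p = 4.4e-06). The wild-type add-back had 2 counts in all, so its ratio is given with a counting interval: ko was 25.4-fold higher (exact 95% interval 6.86 to 212, counting error only). Per kb of exon, Col3a1 in ko was at 0.139 CPM, below Col1a1 and Col1a2. Its exons share 141 bases with a microRNA gene on the same strand, Gm47302.

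Upstream sequences of Col1a2 and Col3a1 are shown because these genes rose in ko together and stand in RefSeq's promoter table. Printed is the longest stretch of the 250 bases before each start site outside GENCODE M21 exons of the gene, in the direction of the gene. They come from chr6:4505370-4505492 (plus strand) and chr1:45311288-45311537 (plus strand) of GRCm38.p6. The stretch of Col1a2 thus leaves out the bases next to its start site. Capitals mark the letters of a GC box (GGGCGG on either strand), a TATA box (TATAAA) and the TEAD motif (GGAATG on either strand). The GC boxes begin 205 and 188 bases before the start site of Col1a2. For Col3a1 the TEAD letters begin 168 and TATAAA 117 bases before it.
Col1a2: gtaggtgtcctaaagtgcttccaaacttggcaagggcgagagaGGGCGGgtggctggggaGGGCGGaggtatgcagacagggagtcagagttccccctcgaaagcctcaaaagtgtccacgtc
Col3a1: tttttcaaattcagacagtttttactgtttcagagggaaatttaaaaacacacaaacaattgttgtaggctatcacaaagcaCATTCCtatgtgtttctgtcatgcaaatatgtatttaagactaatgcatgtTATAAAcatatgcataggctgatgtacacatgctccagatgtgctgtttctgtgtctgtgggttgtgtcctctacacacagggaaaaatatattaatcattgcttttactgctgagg
The 2 stretches differ in make-up. That of Col1a2 is 59.3% G and C with 5 CpG pairs, and that of Col3a1 is 35.2% G and C with 0. The whole promoter window of Col1a2, of 300 bases, holds 13 CpG pairs and 2 CCAAT boxes that the printed part lacks.

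The 3 chains of type V collagen, which start and thin the fibrils of type I, all rose. Col5a1, the most abundant fibrillar gene per kb in every group, held 14.9 to 23 CPM in wild type (median 18.5) and 44.7, 48, 40, 40.6 and 40.6 in ko. The wild-type add-back held 14.2, 12.7 and 14.5 CPM and the mutant add-back 36.5 and 37.2. Ko and the mutant add-back lay above every library of the other groups. Its exons share 99 and 113 bases with 2 transcripts on the other strand. The log2 fold changes were 1.17 ± 0.10 in ko against wild type (adjusted p = 9.7e-09) and -1.63 ± 0.13 in the wild-type add-back against ko (adjusted p = 2.6e-08).

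Col5a2 (chr1:45374331-45503282), the second type V chain, lies 24.6 kb from Col3a1 on the opposite strand. It held 0.755 to 2.04 CPM in wild type (median 1.22), 5.95, 5.45, 6.66, 7.89 and 8.54 in ko, 0.958, 0.984 and 1.01 in the wild-type add-back and 6.61 and 7.57 in the mutant add-back. Ko and the mutant add-back stood apart from the other groups. Col5a2 rose by 2.41 ± 0.21 in ko (adjusted p = 2.3e-08) and was at -2.80 ± 0.32 in the wild-type add-back (adjusted p = 1.6e-06). The mutant add-back was at 0.04 ± 0.29 against ko (adjusted p = 0.96), a difference within the spread of these libraries. Col5a3, the remaining type V chain, rose by 0.66 ± 0.16 from 10.3 to 16.3 CPM (adjusted p = 0.0018), with ko and wild-type libraries overlapping.

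**Figure D3:**
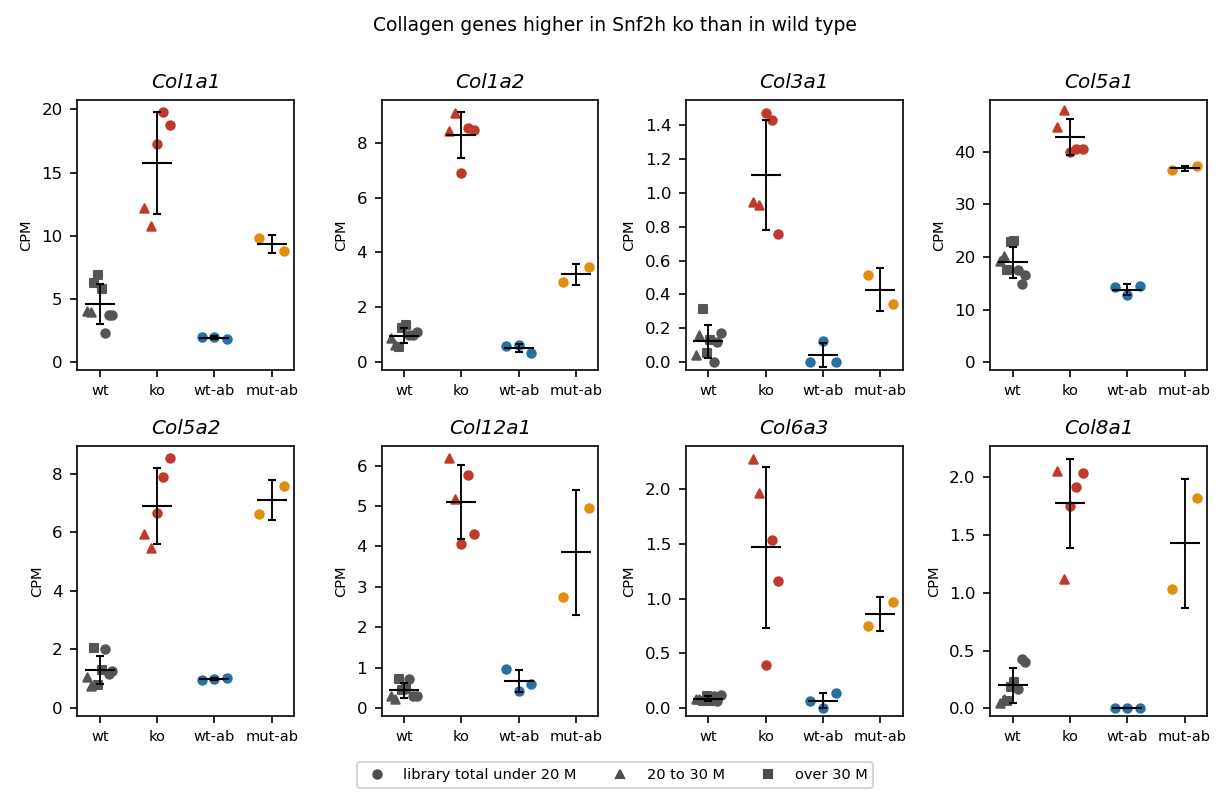
CPM in each of the 18 libraries for 8 collagen genes higher in ko, 1 panel per gene with its own axis from 0, points marked by library total, and lines and bars at group means and SD (wt-ab and mut-ab are the add-backs). For Col5a1 and Col5a2 the ko and mutant add-back points lie together above the other groups, and for Col1a2 the mutant add-back points, at 2.93 and 3.47 CPM, lie between ko and wild type.

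Among the remaining fibrillar genes, Col11a1, a minor fibril chain of cartilage, rose from 3.77 to 8.13 CPM (log2 fold change 1.10 ± 0.19, adjusted p = 8.6e-05, and 1.77 at 20 to 30 M alone) and was at -1.60 ± 0.27 in the wild-type add-back against ko (adjusted p = 1.3e-04). Its ko values were 10.3 and 11.6 CPM in replicates 1 and 2 and 5.7, 5.88 and 7.21 in replicates 3 to 5, all above the wild-type maximum of 5.07. Col2a1, the main cartilage collagen, was at 3.17 to 6.92 CPM in wild type and 3.98 to 5.31 in ko. Its log2 difference over all libraries was -0.04 ± 0.18, not called. Under 20 M it was called higher in ko, at 4.66 to 5.31 CPM against 3.17 to 4.11, but not at 20 to 30 M. Col11a2 was at 1.07 CPM in wild type and 1.43 in ko and was not called over all libraries, but was called higher in ko under 20 M.

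Col27a1, a fibrillar chain of developing cartilage, rose by 0.74 ± 0.27 over all libraries (adjusted p = 0.024) but not within both sets of libraries. Wild type held 3.04 to 8.36 CPM (median 5.62) and ko 13.2, 15.7, 5.59, 6.51 and 6.8. The high ko values were those of replicates 1 and 2, and the other ko values lay inside the wild-type range. In the 20 to 30 M set ko was at 1.86 against wild type and in the set under 20 M at -0.36, a difference between sets of 2.22 ± 0.27 (adjusted p = 2.4e-06). The call over all libraries was lost without ko replicate 1 (0.60) or ko replicate 2 (0.49). Endoderm markers were high in those same replicates, and their part in the result was not tested.

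Fibril-associated collagens moved in both directions. Of 6 tested, Col12a1 and Col16a1 rose in ko, Col9a2 and Col22a1 fell, and Col9a3 and Col20a1 were not called, giving a median log2 fold change of 0.03. Over all tested genes 26.8% were higher and 28.2% lower, so these counts are too near the background to read as a result about the class.

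Col12a1 (chr9:79598987-79721141), which links type I fibrils to the surrounding matrix in tendon and skin, had the largest rise of the class. Wild type held 0.238 to 0.72 CPM (median 0.38). Ko held 6.18, 5.18, 4.07, 5.77 and 4.3 CPM, the wild-type add-back 0.958, 0.431 and 0.607, and the mutant add-back 2.76 and 4.95. The groups without working Snf2h lay apart from the others. The log2 fold change was 3.50 ± 0.25 in ko against wild type (adjusted p = 1.5e-09; 4.36 at 20 to 30 M alone), -2.93 ± 0.36 in the wild-type add-back against ko (adjusted p = 3.3e-06) and -0.41 ± 0.33 in the mutant add-back against ko (adjusted p = 0.56).

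Col16a1, a chain found at fibril and basement membrane borders, rose by 0.65 ± 0.18 in ko (adjusted p = 0.005), from 0.858 to 1.33 CPM. It fell in the wild-type add-back to 0.319, 0.369 and 0.27 CPM, by 2.05 on the log2 scale against ko (adjusted p = 1.9e-05) and to below every wild-type library (-1.40 ± 0.28 against wild type, adjusted p = 0.016). The rise in ko was not called in the set under 20 M (0.38), and the call against wild type was lost whichever wild-type add-back library was left out. Col20a1 was at 1.86 CPM in wild type and 2.67 in ko, uncalled over all libraries, but called higher within both sets (0.90 and 0.88).

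Type IX collagen coats the fibrils of cartilage, and its Col9a2 chain fell in ko. Its wild-type values fell into 2 ranges, 12.9 to 15.6 CPM in replicates 1 to 4 and 6.1 to 8.55 in replicates 5 to 8. Ko held 3.78, 3.52, 4.8, 5.51 and 4.24 CPM, the wild-type add-back 5.75, 4.74 and 4.31 and the mutant add-back 2.53 and 2.73. All ko libraries lay below every wild-type library. The fall was -1.28 ± 0.24 over all libraries (log2, adjusted p = 1.7e-04), -1.86 in the 20 to 30 M set and -0.41 under 20 M, where it was not called, a difference between sets of -1.46 ± 0.29. The wild-type add-back did not differ from ko (0.18 ± 0.30, adjusted p = 0.65) beyond the spread of the libraries. Col9a3, its partner chain, was at 3.63 CPM in wild type and 2.71 in ko and was not called over all libraries. At 20 to 30 M it was called lower in ko, with means of 3.1 CPM against 4.76. It shares 234 exonic bases with Tcfl5 on the other strand.

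Col22a1, a collagen of tissue junctions such as that of muscle and tendon, fell from 1.41 CPM in wild type to 0.223 in ko (-2.60 ± 0.40, adjusted p = 2.7e-05). Wild type held 0.694 to 2.5 CPM (median 1.33), ko 0.433, 0.232, 0.113, 0.106 and 0.232 and the wild-type add-back 0.511, 0.554 and 0.607, an uncalled 1.23 ± 0.56 above ko (adjusted p = 0.078). The add-back libraries lay between ko and wild type with no overlap on either side. The mutant add-back had 3 counts in all, and wild type was 17.7-fold above it (exact 95% interval 5.99 to 86.2, counting error only).

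Network-forming collagens were represented by Col8a1, Col8a2 and Col4a5 among the tested genes, and the first 2 rose in ko. Of all tested genes 26.8% were higher in ko. Type VIII collagen forms the hexagonal lattice beneath endothelia, such as that of the cornea. Col8a1 held 0.0439 to 0.427 CPM in wild type (median 0.175), 2.05, 1.12, 1.75, 1.91 and 2.03 in ko, 0 in each of the 3 wild-type add-back libraries and 1.03 and 1.82 in the mutant add-back. Ko and the mutant add-back lay above all libraries of the other groups. The rise in ko was 3.22 ± 0.36 (log2, adjusted p = 1.2e-06), being 4.54 at 20 to 30 M and 2.51 under 20 M. With a floor of 3 counts over the group, 0.0642 CPM, the wild-type add-back was at least 27.6-fold lower than ko (adjusted p = 8.1e-06) and at least 22.2-fold lower than the mutant add-back.

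Its partner Col8a2 rose by 0.82 ± 0.21 in ko (adjusted p = 0.0025), from 1.41 to 2.53 CPM, with overlapping libraries, and was not called in the 20 to 30 M set alone (0.55). It was at -0.96 ± 0.29 in the wild-type add-back against ko (adjusted p = 0.011), a call lost without wild-type add-back replicate 2. Col4a5, a chain of kidney and lung basement membranes, was at 1.02 CPM in wild type and 0.903 in ko (-0.19 ± 0.27, not called over all libraries). At 20 to 30 M it was called lower in ko, with means of 0.898 CPM against 1.55. The head-to-head pairs Col4a3 with Col4a4 and Col4a5 with Col4a6 were otherwise below 1 CPM in each group.

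The beaded-filament class split between its chains. Type VI collagen is assembled from the chains of Col6a1 and Col6a2 with a further chain, which is that of Col6a3, Col6a4, Col6a5 or Col6a6. In ko Col6a1 and Col6a3 rose, whereas Col6a2, Col6a4, Col6a5 and Col6a6 fell, and the median log2 fold change of the 6 was -1.69. Over all tested genes 26.8% were higher and 28.2% lower in ko. In the wild-type add-back Col6a1 and Col6a3 fell against ko and Col6a4, Col6a5 and Col6a6 rose, with a median of 0.64. The shares of all tested genes in that comparison were 22.4% lower and 22.5% higher.

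Among the alternative chains, Col6a4 had the highest level per kb in wild type (0.714 CPM per kb) and Col6a3 in ko (0.13). Col6a3, the form common in connective tissue, held 0.061 to 0.116 CPM in wild type (median 0.0836) and 2.28, 1.97, 0.395, 1.54 and 1.16 in ko. The mutant add-back held 0.747 and 0.968 CPM and the wild-type add-back 0.0639, 0 and 0.135. All ko and mutant add-back libraries lay above the others, although ko replicate 3 was far below the remaining ko libraries. The rise in ko was 4.05 ± 0.38 (log2, adjusted p = 5.6e-08), and 3.35 under 20 M alone. The wild-type add-back had 3 counts, and ko was 24.5-fold above it (exact 95% interval 8.23 to 120, counting error only; adjusted p = 2.1e-05).

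Col6a4, Col6a5 and Col6a6 lie next to each other on the minus strand of chromosome 9, with 27.8 and 27.9 kb between them. Col6a4 (chr9:105990318-106096828) held 3.82 to 6.42 CPM in wild type (median 5.39), 0.591, 0.773, 0.565, 0.476 and 0.814 in ko, 5.11, 4.12 and 5.06 in the wild-type add-back and 0.46 and 0.683 in the mutant add-back. The wild-type add-back lay within the wild-type range, and ko and the mutant add-back lay together well below it. Col6a4 was at -3.03 ± 0.18 in ko against wild type (log2, adjusted p = 1.5e-10), at 2.87 ± 0.21 in the wild-type add-back against ko (adjusted p = 4.9e-09) and at -0.16 ± 0.17 in that add-back relative to wild type (adjusted p = 0.69). The change in ko was -3.05 in the 20 to 30 M set and -3.01 under 20 M.

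Col6a5 (chr9:105856070-105962463) held 1.95 to 2.75 CPM in the wild-type add-back, and 2.37 to 6.96 in wild type (median 4.49). Ko held 0.394, 0.773, 0.678, 0.265 and 0.407 CPM and the mutant add-back 0.747 and 0.398. Every ko and mutant add-back library lay below every library with wild-type Snf2h. The log2 fold changes were -3.11 ± 0.33 in ko against wild type (adjusted p = 3.4e-07) and 2.21 ± 0.40 in the wild-type add-back against ko (adjusted p = 2.2e-04). The size of the fall differed between sets, -2.11 at 20 to 30 M and -3.79 under 20 M.

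Col6a6 (chr9:105689417-105828246) held 0.814 to 2.18 CPM in wild type (median 1.45), 0.354, 0.387, 0.282, 0.212 and 0.116 in ko, 1.02, 0.861 and 1.42 in the wild-type add-back and 0.172 and 0.228 in the mutant add-back. The same separation was seen as for its neighbours. Its log2 fold change was -2.38 ± 0.30 in ko (adjusted p = 2.9e-06) and 1.94 ± 0.38 in the wild-type add-back against ko (adjusted p = 4.5e-04). Exons of Col6a4 share 162 and 127 bases with 2 antisense or unclassified transcripts and those of Col6a6 share 63 with another, and the strand setting of the counting is not given in the sources used here.

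Upstream sequences of the 3 neighbours are shown because the genes fell together in ko. For each gene they are the longest stretch outside its GENCODE M21 exons among the 250 bases before a start site in RefSeq's promoter table. They come from chr9:106096784-106096941, chr9:105960644-105960893 and chr9:105828161-105828335 of GRCm38.p6, all on the minus strand. These start sites lie inside the gene spans given above. The stretch of Col6a5 therefore lies wholly within its gene, and those of Col6a4 and Col6a6 begin outside the span and end within it. Capitals mark a CCAAT box (CCAAT on either strand) and GC boxes (GGGCGG on either strand).
Col6a4: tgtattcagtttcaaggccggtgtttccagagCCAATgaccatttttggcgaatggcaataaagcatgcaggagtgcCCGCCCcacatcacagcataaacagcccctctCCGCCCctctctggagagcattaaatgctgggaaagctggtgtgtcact
Col6a5: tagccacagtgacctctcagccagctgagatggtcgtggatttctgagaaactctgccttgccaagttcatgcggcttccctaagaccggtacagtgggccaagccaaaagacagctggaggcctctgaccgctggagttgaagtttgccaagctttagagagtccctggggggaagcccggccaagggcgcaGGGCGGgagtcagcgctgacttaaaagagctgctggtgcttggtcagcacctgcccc
Col6a6: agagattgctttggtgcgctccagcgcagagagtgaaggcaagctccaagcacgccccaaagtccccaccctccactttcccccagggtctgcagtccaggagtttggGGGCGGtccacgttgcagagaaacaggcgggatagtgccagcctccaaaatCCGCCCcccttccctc
Each holds at least 1 GC box, and none holds TATAAA. They are 51.9%, 58.8% and 61.7% G and C, with 4, 8 and 7 CpG pairs.

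**Figure D4:**
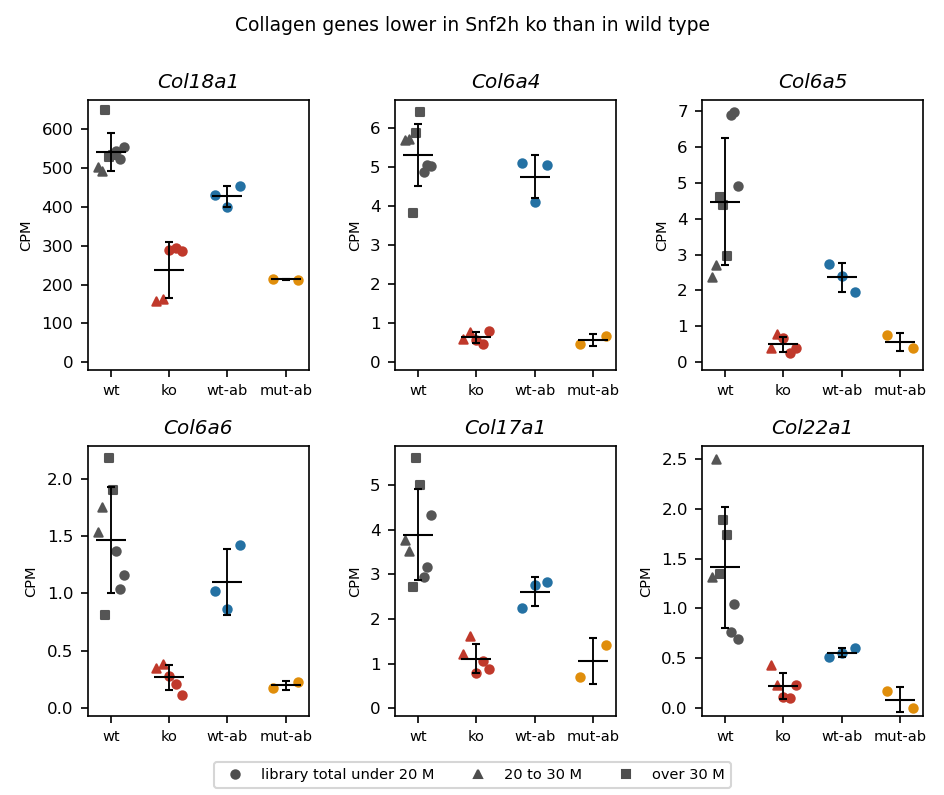
CPM in each of the 18 libraries for 6 collagen genes lower in ko, 1 panel per gene with its own axis from 0, points marked by library total, and lines and bars at group means and SD (wt-ab and mut-ab are the add-backs). For Col6a4 the wild-type add-back points, 4.12 to 5.11 CPM, lie within the wild-type range and the ko and mutant add-back points lie below 1 CPM, and for Col18a1 the ko libraries form a lower and an upper cluster by library total.

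The common chains Col6a1 and Col6a2 lie 85.2 kb apart on the minus strand of chromosome 10 and moved in opposite directions. Col6a1 held 0.174 to 0.939 CPM in wild type (median 0.556), 1.89, 2.09, 1.69, 1.43 and 1.86 in ko, 0.383, 0.185 and 0.0674 in the wild-type add-back and 1.26 and 1.02 in the mutant add-back. Libraries of ko and of the mutant add-back were above all others. Its log2 fold change was 1.73 ± 0.29 in ko (adjusted p = 5.8e-05), being 1.66 at 20 to 30 M and 2.70 under 20 M, and -3.04 ± 0.50 in the wild-type add-back against ko (adjusted p = 8.1e-05), or -3.75 without wild-type add-back replicate 1. Col6a2 held 0.694 to 3.19 CPM in wild type and 0.734 to 1.38 in ko, overlapping ranges. It was 1.99-fold lower in ko over all libraries (adjusted p = 0.014). Its log2 fold change was 0.19 in the set under 20 M and -1.32 at 20 to 30 M, and it was no longer called without the 3 wild-type libraries over 30 M (-0.56).

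Col7a1, which forms the anchoring fibrils beneath the epidermis, fell modestly. Wild type held 4.48 to 7.17 CPM (median 5.69), ko 4.33, 4.41, 3.39, 3.71 and 3.66, the wild-type add-back 3, 4.12 and 4.45 and the mutant add-back 3.33 and 3.36. All 10 libraries of the other groups lay below every wild-type library. The change in ko was -0.54 ± 0.14 (log2, adjusted p = 0.003), being -0.85 in the set under 20 M and -0.06 at 20 to 30 M. The wild-type add-back did not differ from ko beyond its error (-0.02 ± 0.18).

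Transmembrane collagens gave 1 rise and 2 falls of 3 tested, beside 26.8% and 28.2% of all tested genes. These are too few genes to read as a result about the class. Col17a1, the hemidesmosome collagen of epithelia, held 2.72 to 5.62 CPM in wild type (median 3.66), 1.22, 1.62, 0.791, 1.06 and 0.872 in ko, 2.24, 2.77 and 2.83 in the wild-type add-back and 0.689 and 1.42 in the mutant add-back. Ko and the mutant add-back lay below the other groups with no overlap. The log2 fold change was -1.78 ± 0.23 in ko (adjusted p = 3.7e-06) and 1.20 ± 0.29 in the wild-type add-back against ko (adjusted p = 0.0025).

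Col23a1, a transmembrane chain that is shed from the cell surface, went the other way. It held 0.183 to 0.968 CPM in wild type (median 0.681), 3.58, 3.71, 1.98, 1.43 and 1.98 in ko, 0.319, 0.308 and 0.202 in the wild-type add-back and 2.13 and 2.05 in the mutant add-back. All ko and mutant add-back libraries lay above every wild-type and wild-type add-back library. The rise in ko was 1.94 ± 0.29 (adjusted p = 1.6e-05). Against ko, the wild-type add-back was at -3.18 ± 0.49 (adjusted p = 4.3e-05).

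Col13a1, a collagen of cell adhesion sites and the neuromuscular junction, was called lower than wild type in each of the other groups, although the call of the mutant add-back (-0.79, adjusted p = 0.028) was lost without either of its libraries. It held 6.97 to 16.6 CPM in wild type (median 11.1), 5.16, 4.87, 8.24, 9.21 and 8.83 in ko, 3, 3.14 and 3.17 in the wild-type add-back and 7.3 and 6.15 in the mutant add-back. Ko overlapped wild type, and the wild-type add-back lay below every other library. The log2 fold change was -0.68 ± 0.19 in ko against wild type (adjusted p = 0.0058), not called under 20 M (-0.38), and -1.22 ± 0.27 in the wild-type add-back against ko (adjusted p = 0.0014). Relative to wild type, the wild-type add-back was at -1.90 ± 0.26 (adjusted p = 6.3e-04), a level below both ko and wild type.

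Of the multiplexins, Col18a1 fell and Col15a1 rose. Col18a1 (chr10:77052178-77166530), a heparan sulphate proteoglycan of basement membranes and the source of endostatin, was the most abundant of the 42 genes. Wild type held 493 to 650 CPM (median 531), ko 157, 162, 289, 295 and 287, the wild-type add-back 431, 399 and 453 and the mutant add-back 214 and 213. Ko and the mutant add-back were below every wild-type library, and the wild-type add-back lay between them and wild type. The log2 fold change was -1.18 ± 0.14 in ko (adjusted p = 1.4e-06), 0.85 ± 0.17 in the wild-type add-back against ko (adjusted p = 6.3e-04) and -0.34 ± 0.16 in that add-back relative to wild type (adjusted p = 0.34). The fall differed by set, -1.64 at 20 to 30 M and -0.90 under 20 M, with no overlap of ko and wild-type libraries in either.

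Col15a1, the related proteoglycan of muscle and vessel basement membranes, held 0.157 to 0.675 CPM in wild type (median 0.338) and 1.81, 1.39, 0.96, 0.688 and 0.407 in ko. The lowest ko library lay inside the wild-type range. The rise was 1.65 ± 0.35 (adjusted p = 6.3e-04) and was not called in the set under 20 M alone (0.90). In the wild-type add-back Col15a1 was at -1.48 ± 0.51 against ko (adjusted p = 0.024), a call lost without ko replicate 1 or wild-type add-back replicate 1 or 3. The remaining gene, Col26a1, fell from 1.75 CPM in wild type to 0.433 in ko (-1.99 ± 0.45, adjusted p = 0.0011), with overlapping libraries and no call under 20 M (-1.29).

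Within the 2 sets that held both genotypes, ko against wild type gave 16 collagen genes higher and 12 lower at 20 to 30 M counts, where 29.9% and 31.9% of all genes were called, and 16 higher and 7 lower under 20 M, where 29.3% and 30.8% were. The 13 genes higher in both sets were Col1a1, Col1a2, Col3a1, Col5a1, Col5a2, Col5a3, Col11a1, Col12a1, Col20a1, Col8a1, Col6a1, Col6a3 and Col23a1, and the 6 lower in both were Col22a1, Col6a4, Col6a5, Col6a6, Col17a1 and Col18a1. None was called in opposite directions. The share of all genes called in both sets was not computed, so these joint counts are not set against a background. The difference of the ko effects between the sets was itself called for 8 of 32 genes, beside 26.8% of all genes. For Col1a1 the rise was 2.52 under 20 M and 1.52 at 20 to 30 M. For comparison, the left-out chain Col4a1 was at -0.39 and 2.62 in the same order.

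**Figure D5:**
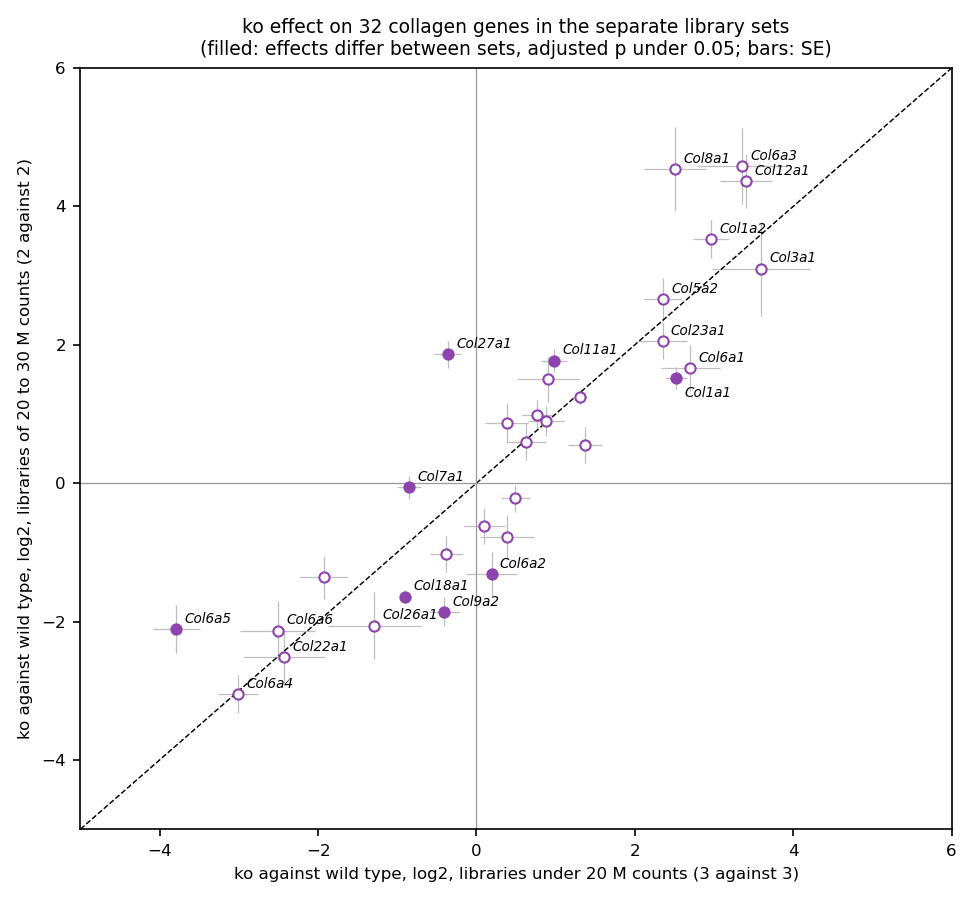
Log2 fold change of ko against wild type for the 32 tested collagen genes in libraries under 20 M counts (x axis, 3 against 3) and of 20 to 30 M counts (y axis, 2 against 2), with standard errors as bars, a dashed line of equality and filled points for the 8 genes whose effects differed between the sets. Col27a1 lies at -0.36 and 1.86 and Col6a2 at 0.19 and -1.32, while Col6a4 lies on the line at -3.01 and -3.05.

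Genes that act on collagen after translation were described by 5 lists, and the all-gene shares are repeated beside their counts. Of 20 genes for folding and modification in the endoplasmic reticulum, 13 rose in ko and 0 fell, with a median log2 fold change of 0.55, beside 26.8% and 28.2% of all genes. In the wild-type add-back 14 fell against ko and 0 rose, beside 22.4% and 22.5%. The rise differed by set: 16 of the 20 were higher and 0 lower at 20 to 30 M (median 1.09), whereas 8 were higher and 5 lower under 20 M (median 0.20). The collagen galactosyltransferase Colgalt1 rose from 140 to 267 CPM, the prolyl 3-hydroxylase P3h1 from 36.6 to 62.5, the chaperone Fkbp10 from 41.1 to 92.2 and the prolyl 4-hydroxylase subunit P4ha3 from 0.141 to 0.963. Serpinh1, the collagen chaperone HSP47, was at 295 CPM in wild type and 585 in ko, but its log2 difference was 2.35 in the 20 to 30 M set and -0.33 under 20 M. Sparc, in this list, also belongs to the endoderm markers that split by set.

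Of 12 tested genes for processing and crosslinking, 9 rose in ko and 0 fell, with a median of 0.76 and the same background shares of 26.8% and 28.2%. In the sets 8 were higher and 0 lower at 20 to 30 M, and 8 higher and 1 lower under 20 M. Lox, the lysyl oxidase that crosslinks fibrils, rose from 0.307 to 5.84 CPM (4.33 ± 0.29, adjusted p = 7.9e-10), was at 0.0654 in the wild-type add-back and 7.11 in the mutant add-back, and its relative Loxl3 rose from 1.84 to 4.01. Of the 7 tested collagen receptors 3 rose and 2 fell, beside 26.8% and 28.2% of all genes, too few genes to read as a result about receptors. By set, 3 were higher and 0 lower at 20 to 30 M, and 2 higher and 3 lower under 20 M. Among the receptors Itga11, the integrin chain for type I collagen on fibroblasts, rose from 0.135 to 1.02 CPM. The receptor kinase Ddr2 fell from 2.04 to 1.19, with overlapping libraries.

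Of the 6 tested fibril partners 4 rose and 1 fell (background 26.8% and 28.2%), with a median of 1.63. Thbs1, a thrombospondin, rose from 17.3 to 87.6 CPM, and the proteoglycan Bgn from 2.95 to 21.9. Fn1, which encodes fibronectin, fell from 1460 to 943 CPM over all libraries, but its ko range of 872 to 1030 lay inside the wild-type range of 859 to 2260, and its log2 difference was -0.69 at 20 to 30 M and 0.03 under 20 M. Of the 7 tested genes of the collagen degradation list 5 rose and 2 fell (background 26.8% and 28.2%). The 5 were the proteases Mmp14 and Mmp15 and the protease inhibitors Timp1, Timp2 and Timp3. The 2 were the proteases Mmp2 and Mmp9. By set, 5 were higher and 2 lower at 20 to 30 M (median log2 fold change 1.43). Under 20 M 4 were higher and 1 lower (median 0.34). Mmp2 was at -0.62 and 0.19 in the same order, and its ko range of 8.43 to 9.51 CPM lay inside the wild-type range of 7.14 to 23.3. The membrane collagenase Mmp14 rose from 71.8 to 178 CPM and the gelatinase Mmp9 fell from 2.32 to 0.529. In the mutant add-back 0 genes of these 5 lists were called against ko, where 0.114% of all genes were called higher and 0.208% lower. Lox and Bgn are also fibroblast markers of the list above, so their values are not separate from it.

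Promoter windows of 300 bases, 250 before and 50 after the start site, were found in RefSeq for 33 of the 42 genes, in 36 windows. Col12a1, Col14a1, Col1a1, Col22a1, Col26a1, Col2a1, Col4a3, Col5a2 and Col9a3 had no entry. A GC box, searched as GGGCGG on both strands, was present in 58.3% of the collagen windows and in 35.7% of all 32851 windows. For CCAAT the shares were 30.6% and 37.4%, for TATAAA 13.9% and 13.6%, for GGAATG 13.9% and 14.7%, and for the AP-1 letters TGACTCA or TGAGTCA 2.78% and 5.2%, all on both strands. The letters CACGTG were in none of the collagen windows and in 7.15% of all. Windows of genes called higher in ko held a median of 13 CpG pairs (0 to 34, 13 windows) and those of genes called lower 10 (5 to 29, 11 windows), beside 7 over all windows. Tested genes without a call held 11 (1 to 16, 3 windows) and untested collagen genes 6 (0 to 23, 9 windows). A link of CpG content with the change in ko was not tested.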

How the data were processed

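The values used are raw counts of reads per gene, deposited by the authors in a single table of genes (Entrez identifiers) by libraries. Per the labels, polyadenylated RNA was made into stranded TruSeq libraries, and per the submitters' processing notes bcl2fastq 2.17 and STAR were used with GRCm38, also called mm10. For STAR's version, and for how reads were counted (tool, gene models, strand), the entry here is: not given in the sources used here. The analysis began from the deposited counts.

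The 6 comparisons were made in 1 fit with a mean for each group (edgeR 4.0.16, R 4.3.3), TMM scaling, filterByExpr with a count minimum of 10 (14901 genes kept) and the robust quasi-likelihood test, two-sided, adjusted by Benjamini-Hochberg over all genes. CPM use TMM-scaled totals. A group without a count was given a floor of 3 counts, and exact intervals condition on the total of both groups. Intervals and floors cover counting error only, as no molecular identifiers are described. Library sets were compared in a fit of group by set. Coordinates and upstream sequences are from RefSeq (GRCm38.p6), and exons from GENCODE M21. The fit was tested on simulated counts with a fixed dispersion and no library sets, so that test does not cover the spread between sets.

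Alternatives were DESeq2 1.42.0, other scalings and filters, a replicate block, library sets and leaving out each library. Leaving out the 3 wild-type libraries over 30 M counts was chosen after seeing the data. Classes, pathway lists and marker lists were written from general knowledge, and the genes and lists were chosen with earlier results of these data known. Fold changes with errors and p were given to the 12 genes of highest mean and to those called at 2-fold or more between ko, wild type or the add-backs, and in some cases to others of at least 1 CPM, which were chosen after their values were seen.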

Additional observations from a re-analysis of the deposited data

Results flagged for a closer look

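In 64 series of 8 wild-type or 5 ko libraries (32 genes in each group), 2 held a library far from the rest, and chance flags about 1 in 20 such series. Col9a3 was at 3.63 CPM in ko replicate 2, where the next ko library held 2.65 and the lowest 2.27. Col18a1 was at 650 CPM in wild-type replicate 3, where the next held 555 and the lowest 493.

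The effect of ko differed between the library sets, by the test of the difference itself, for 8 genes. The log2 fold change at 20 to 30 M counts minus that under 20 M was 2.22 for Col27a1, 1.68 for Col6a5, 0.79 for Col11a1 and 0.79 for Col7a1. It was -1.51 for Col6a2, -1.46 for Col9a2, -1.01 for Col1a1 and -0.75 for Col18a1. Both sets gave the same direction for Col1a1, Col11a1, Col6a5 and Col18a1, each called within both. What the sets differ in besides their totals was not tested.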

How the results depend on the processing

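Of 99 fold changes called for single genes over the 6 comparisons, 66 kept their call and direction under the alternatives that were run, 33 lost the call under at least 1, and 2 of those reversed, both in ko against wild type in libraries under 20 M counts (Col27a1 at -0.36, Col6a2 at 0.19). In that set 7 genes were lower in ko than in wild type, 1 was higher and 4 were lower in the mutant add-back than in ko, and 7 were lower in the wild-type add-back than in wild type. DESeq2 gave 0 genes lower in the mutant add-back than in ko and 7 lower in the wild-type add-back than in wild type. With the replicate block these counts were 0 and 9, and 5 of the 99 calls were lost. The labels do not say that replicate numbers pair libraries, and of 17 pairs 4 had a correlation of deviations over 0.1 (-0.25 to 0.17), so the numbers were not taken as pairs. Leaving out single libraries moved the genes lower in the mutant add-back than in ko from 0 to 1, those lower in the wild-type add-back than in wild type from 1 to 6, and those higher in the mutant add-back than in wild type from 8 to 14. For ko against wild type the ranges were 15 to 17 higher and 11 to 11 lower. Where a mutant add-back library was left out, the lone library was assumed to vary like the other groups. Scaling moved the median of all genes by at most 0.08. Genes below 1 CPM rest on few counts, so small differences in them were not detectable at this depth.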
